A study of Homo sapiens with 10 samples.

Results

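The aminoacyl-tRNA synthetase genes were examined in DLD-1 cells, a human colorectal adenocarcinoma line, in which lamin B1 (LMNB1) had been depleted by a short hairpin RNA. Members were taken by symbol, as every synthetase gene with an array probe annotated to that gene alone, which gave 30 of the 11198 genes tested, 18 cytosolic and 12 mitochondrial, the latter being those whose symbol ends in 2. All 30 lay above the filter on low values, a log2 level of 5.96. FARSB, SARS2, VARS2 and YARS2 were represented only by probes annotated to several genes and have no value here. AARS2, HARS1 and YARS1 also had such a shared probe, which was not used.

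RNA was measured on 10 exon arrays from 8 clones or cultures. The negative controls were 1 culture of untransfected wild type DLD-1 cells and 3 clones carrying an empty vector. The knockdown samples were clones 8, 9 and 12 of the hairpin construct V2LHS_62673 and a single clone of the construct V2LHS_62675. The titles of the latter samples call it clone 12, while their descriptions and the series design call it clone 2, the name used here. Its 3 arrays were averaged to 1 value, so it counted as 1 sample. Each knockdown line grew from a single cell, and all cultures except the wild type were kept in puromycin, so the wild type differed from the empty vector clones in transfection, selection and cloning together. The labels name no age, genotype or treatment beyond these. In bulk cultures, less of a transcript in every cell and fewer cells that make it cannot be told apart. The p-values measure only the spread between these samples. That spread holds clone, culture and array together, since every sample but clone 2 is 1 array.

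Aminoacyl-tRNA synthetases join each amino acid to its tRNA, the step at which the genetic code is read into protein. Separate nuclear genes generally encode the enzymes of the cytosol and of the mitochondrion, except GARS1 and KARS1, which serve both compartments. In the cytosol several of the enzymes are held in the multisynthetase complex. Many cytosolic synthetase genes are known targets of ATF4, the transcription factor of the amino acid response, which binds a composite C/EBP-ATF element.

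The probe for LMNB1, which its annotation shares with PCIF1, read 7.65 ± 0.14 (SD, n = 4) in the knockdown clones and 9.11 ± 0.30 (SD, n = 4) in the controls. The knockdown values spanned 7.45 to 7.79 and the control values 8.84 to 9.52 without overlap, which leaves 36.3% of the control level (exact permutation test, two-sided, p = 0.0286, the smallest that 70 regroupings allow). In limma the difference had an adjusted p of 0.0603. The array of clone 8 stood apart. It correlated with the other 9 arrays at 0.915 to 0.926, where those correlated with each other at 0.986 to 0.994, and its median was 7.62 against 7.34 to 7.41. Differences are therefore given with and without clone 8 where it changes them, and each count says which clones it used. Of 10 colon epithelium markers 9 lay above the filter level, with KRT20 below it. So did 2 of 4 leukocyte markers (PTPRC and CD3E below), 3 of 5 fibroblast markers (DCN and LUM below) and 2 of 3 endothelial markers (PECAM1 below). Above the median probe lay 7 of 10 colon epithelium, 1 of 4 leukocyte, 1 of 5 fibroblast and 0 of 3 endothelial markers.

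The start regions of the synthetase genes were searched for the letters TGATGNAA, a core of the C/EBP-ATF element, on both strands (TTNCATCA on the other strand). This motif was chosen after the expression values had been seen. RefSeq sequences (GRCh38.p14) from 250 bases before to 50 after the start site were at hand for 26 of the 30 genes, all except AARS2, LARS1, VARS1 and YARS1. The motif occurred in 7 of 15 cytosolic genes (46.7%) and in 0 of 11 mitochondrial genes. Among all genes of the sequence table it occurred in 1217 of 27305 (4.46%). A match is a run of letters, with no binding measured here. The 7 windows are shown because their genes are described as a group below. Each reads 5′ to 3′ on the gene's strand, with the motif in capitals.
AARS1: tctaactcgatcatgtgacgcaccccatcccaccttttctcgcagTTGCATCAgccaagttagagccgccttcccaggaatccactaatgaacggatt
CARS1: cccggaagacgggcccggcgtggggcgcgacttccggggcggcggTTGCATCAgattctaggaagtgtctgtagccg
GARS1: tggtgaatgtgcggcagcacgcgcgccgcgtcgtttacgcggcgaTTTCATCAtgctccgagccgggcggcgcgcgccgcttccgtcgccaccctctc
IARS1: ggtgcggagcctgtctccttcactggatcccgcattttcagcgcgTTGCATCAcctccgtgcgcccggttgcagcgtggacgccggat
MARS1: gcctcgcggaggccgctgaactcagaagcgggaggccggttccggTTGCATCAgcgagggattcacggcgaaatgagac
NARS1: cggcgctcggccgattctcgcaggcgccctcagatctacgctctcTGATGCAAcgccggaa
TARS1: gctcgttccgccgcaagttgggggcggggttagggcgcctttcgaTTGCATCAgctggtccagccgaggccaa

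The windows lie at chr16:70289641-70289738 for AARS1, chr11:3057394-3057470 for CARS1, chr7:30594800-30594897 for GARS1, chr9:92293668-92293755 for IARS1, chr12:57488019-57488097 for MARS1, chr18:57621807-57621867 for NARS1 and chr5:33440922-33440994 for TARS1. Those of GARS1, MARS1 and TARS1 are on the plus strand and the other 4 on the minus strand. In CARS1, GARS1, IARS1 and MARS1 the motif began 2 to 33 bases before the start site, and in AARS1 187 bases before it. In TARS1 and NARS1 it began just after the start site, in the transcribed part. NARS1 alone held it on the gene's own strand, and GARS1 alone held TTTCATCA in place of TTGCATCA.

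**Figure D1:**
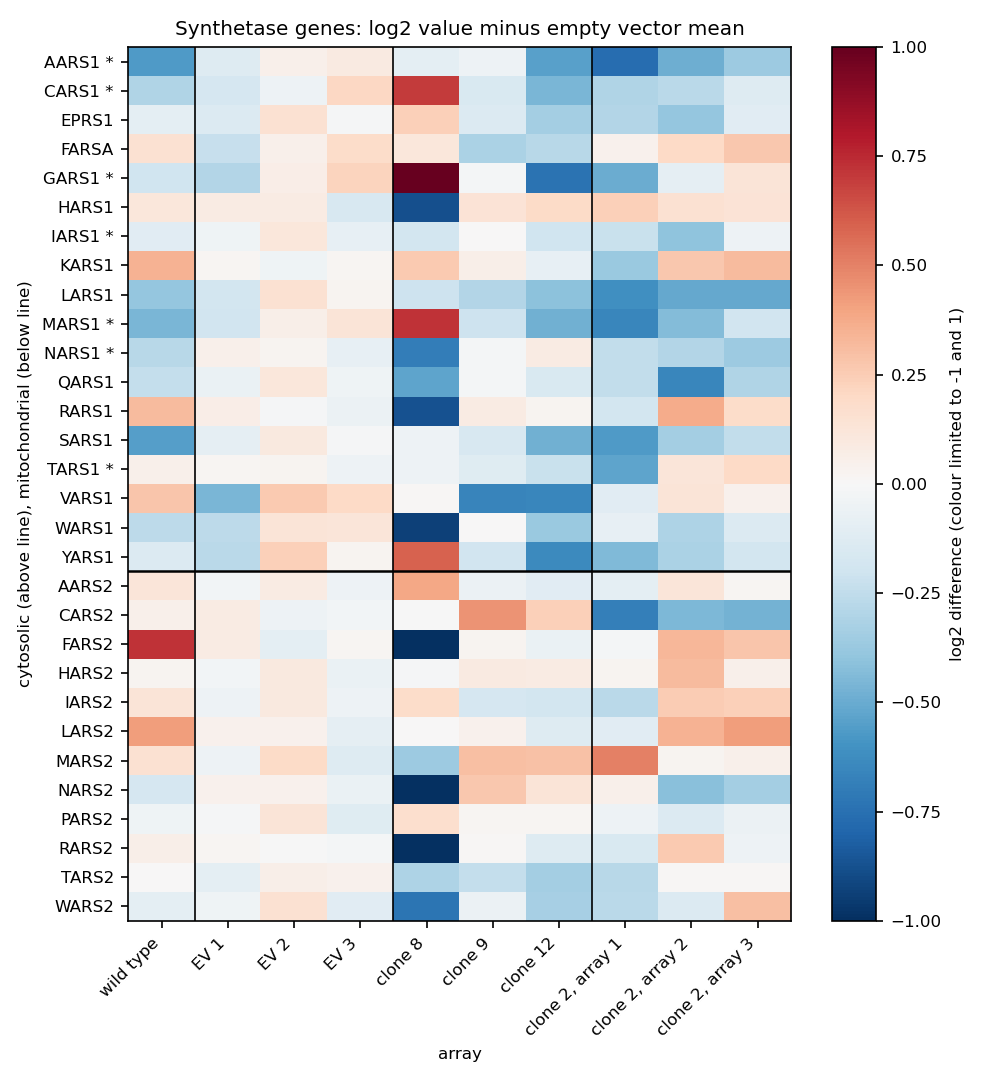
Log2 value minus the mean of the 3 empty vector (EV) clones for the 30 synthetase genes (rows; cytosolic above the line, mitochondrial below; an asterisk marks the motif) on the 10 arrays (columns); blue is lower and red higher, with the colour limited to -1 and 1. Clone 12 and array 1 of clone 2 are mostly blue among cytosolic genes, and clone 8 holds both the most extreme red (GARS1) and the most extreme blue (RARS2).

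Cytosolic synthetase genes lay mostly below the controls in the knockdown clones, by small amounts, and no gene passed the test. With all clones, 15 of 18 cytosolic genes were lower, with a median difference of -0.12 on the log2 scale, where 44.0% of all genes were lower and the median of all genes was 0.04. Of the 12 mitochondrial genes 7 were lower, with a median of -0.07. This count depended on the scaling, with 6 lower after quantile normalization (median -0.01) and 12 after median centring (median -0.13). No synthetase gene passed an adjusted p of 0.05 in limma, nor did any of the 11199 features (0%), and no synthetase gene had an unadjusted p under 0.05, against 167 genes lower and 89 higher of all tested. Without clone 8, 17 of 18 cytosolic genes were lower with a median of -0.19, against 48.1% of all genes and a median of 0.005, and HARS1 was the exception. Of the mitochondrial genes 8 of 12 were lower, with a median of -0.06. Again no feature passed (0%). At an unadjusted p under 0.05, 4 cytosolic genes (EPRS1, LARS1, VARS1 and YARS1) and the mitochondrial TARS2 were lower, against 3.32% of all genes. MARS2 was higher at that level, against 352 of all 11199 features.

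**Figure D2:**
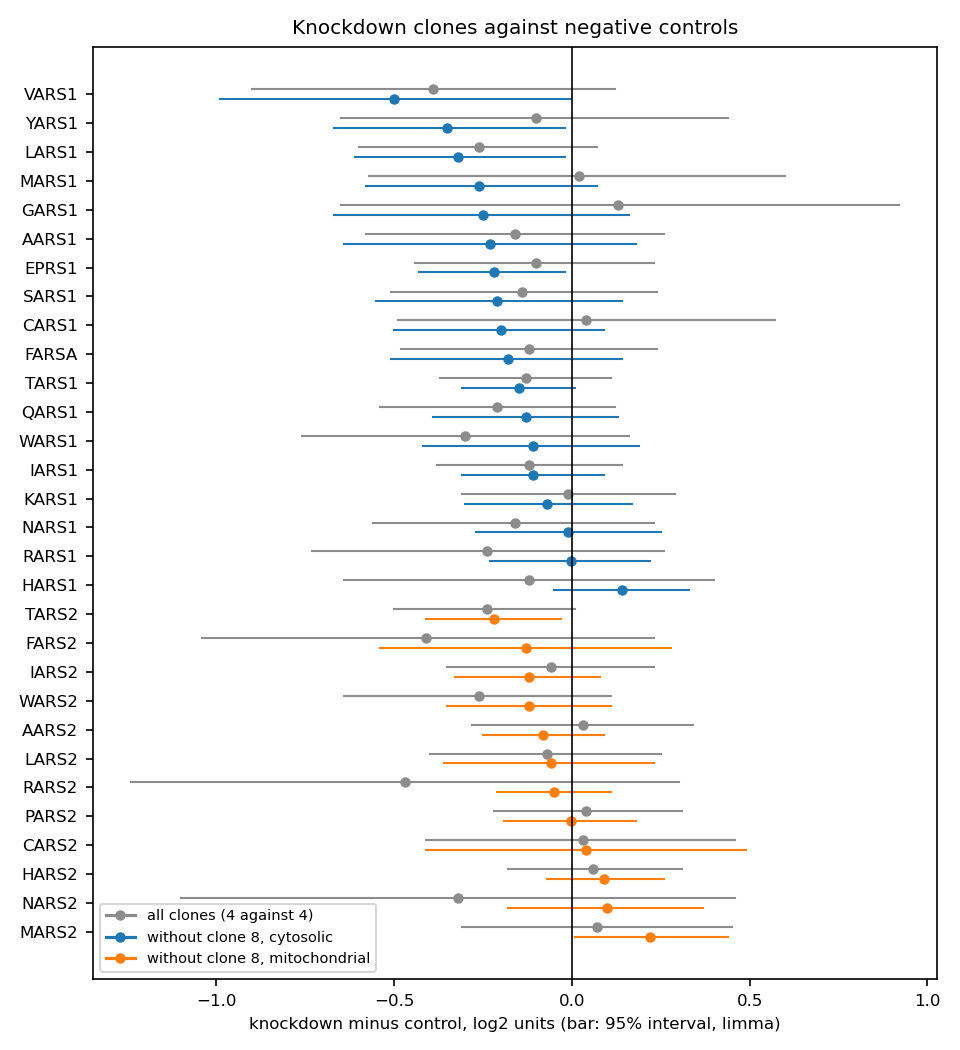
Knockdown minus control in log2 units (horizontal axis) for each synthetase gene, with its 95% interval from limma; grey uses all clones (4 against 4) and colour leaves out clone 8. All but HARS1 of the cytosolic points without clone 8 lie at or below 0, and the intervals with clone 8 are wider for genes such as GARS1, NARS2 and RARS2.

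VARS1, which charges tRNA with valine, read 9.97 in the wild type and 9.24, 9.96 and 9.89 in the empty vector clones. It read 9.71 in clone 8, 9.04 in clone 9 and 9.05 in clone 12, and 9.58, 9.82 and 9.74 on the arrays of clone 2. Clones 9 and 12 were thus the lowest, empty vector clone 1 came next, and the remaining arrays read 9.58 or more, so the low values did not follow the groups. Knockdown minus control was -0.39 (SE 0.23, adjusted p = 0.761) with all clones and -0.50 (SE 0.22, adjusted p = 0.77) without clone 8.

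TARS1, the threonyl enzyme, was the only synthetase gene whose 4 knockdown values all lay below the 4 controls, against 3.13% of all genes that did not overlap in either direction. It read 10.55 in the wild type, 10.52, 10.53 and 10.45 in the empty vector clones, and 10.45, 10.38 and 10.28 in clones 8, 9 and 12, with clone 8 below empty vector clone 3 only beyond the second decimal. Clone 2 averaged 10.43, but its arrays read 9.97, 10.62 and 10.70, so array 1 alone pulled that mean below the controls. The difference was -0.13 (SE 0.11, adjusted p = 0.761), and -0.15 (SE 0.07, adjusted p = 0.78) without clone 8. Without clone 8, TARS1 again lay below and HARS1 and MARS2 lay above all controls, that is 3 of 30, against 6.10% of all genes.

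FARS2 and RARS2, the mitochondrial enzymes for phenylalanine and arginine, had the most negative differences besides VARS1. That of RARS2 rested on clone 8, and that of FARS2 on clone 8 and on the wild type control. RARS2 read 9.65 in the wild type, 9.61, 9.59 and 9.57 in the empty vector clones, 9.60 and 9.46 in clones 9 and 12, and 9.44, 9.84 and 9.54 on the arrays of clone 2, but 7.86 in clone 8. The other knockdown values overlapped the controls. Its knockdown minus control difference was -0.47 (SE 0.35, adjusted p = 0.761) with clone 8 and -0.05 (SE 0.07, adjusted p = 0.939) without it. FARS2 read 6.96 in clone 8, and its difference went from -0.41 (SE 0.28, adjusted p = 0.761) to -0.13 (SE 0.18, adjusted p = 0.936). Its wild type value of 8.75 took the control mean to 8.21, where the empty vector mean was 8.03.

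The most positive differences with all clones were those of GARS1, MARS2 and HARS2, and none of these exceeded its standard error. GARS1, the glycyl enzyme of both compartments, read 10.33 in the wild type, 10.23, 10.60 and 10.74 in the empty vector clones, 11.77 in clone 8, 10.51 in clone 9, 9.79 in clone 12, and 10.02, 10.44 and 10.65 on the arrays of clone 2. Clone 8 was the highest and clone 12 the lowest of the series, so 2 clones of the same construct marked its extremes. The difference of 0.13 (SE 0.35, adjusted p = 0.869) turned to -0.25 (SE 0.18, adjusted p = 0.84) without clone 8.

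MARS2, the mitochondrial methionyl enzyme, read 9.67 in the wild type, 9.47, 9.70 and 9.38 in the empty vector clones, 9.16, 9.82 and 9.80 in clones 8, 9 and 12, and 10.02, 9.55 and 9.57 on the arrays of clone 2. Clone 8 was the lowest sample and clones 9 and 12 lay above all controls. The difference was 0.07 (SE 0.17, adjusted p = 0.861) with clone 8 and 0.22 (SE 0.10, adjusted p = 0.768) without it. With all clones, centring each array on its median took the signs of MARS2 (-0.00053) and HARS2 (-0.0042) to just below 0.

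HARS1 and HARS2, the cytosolic and mitochondrial histidyl enzymes, are read in opposite directions from start sites 85 bases apart. The stretch from the HARS1 start to the HARS2 start, chr5:140691370-140691455 of GRCh38.p14 on the plus strand, is shown because both genes are measured here.
HARS1-HARS2: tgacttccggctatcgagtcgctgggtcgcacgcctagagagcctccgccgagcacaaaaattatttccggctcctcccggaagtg
HARS1 read 10.00 in the wild type, 9.97, 9.97 and 9.73 in the empty vector clones, 9.02, 10.03 and 10.08 in clones 8, 9 and 12, and 10.13, 10.05 and 10.03 on the arrays of clone 2. HARS2 read 8.07 in the wild type, 8.00, 8.14 and 7.97 in the empty vector clones, 8.02, 8.13 and 8.12 in clones 8, 9 and 12, and 8.07, 8.36 and 8.09 on the arrays of clone 2. Clone 8 was thus low for HARS1 and within the control range for HARS2. The knockdown minus control difference of HARS1 was -0.12 (SE 0.23, adjusted p = 0.822) with all clones and turned to 0.14 (SE 0.08, adjusted p = 0.812) without clone 8. That of HARS2 was 0.06 (SE 0.11, adjusted p = 0.801) and 0.09 (SE 0.07, adjusted p = 0.857).

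The next 3 comparisons each use the same 3 empty vector clones, so their values are given side by side and not as independent support. For construct V2LHS_62673 against the empty vector, 14 of 18 cytosolic genes were lower with all clones (median -0.17). Of all 11199 features 5020 were lower with all clones (median 0.04). Without clone 8, 15 of 18 cytosolic genes were lower (median -0.27), against 50.2% of all genes. Without clone 8 the median of all genes was -0.00061. With all clones no feature passed (0%) in limma, and no synthetase gene had an unadjusted p under 0.05, against 264 genes lower and 95 higher of all tested. Without clone 8, 0.991% of all features passed and no synthetase gene did. At an unadjusted p under 0.05, 7 cytosolic genes (CARS1, FARSA, LARS1, MARS1, SARS1, VARS1 and YARS1) and the mitochondrial TARS2 were lower, against 9.22% of all genes. CARS2 (0.35, SE 0.10, adjusted p = 0.135) and MARS2 (0.29, SE 0.11, adjusted p = 0.231) were higher, against 751 of all 11199 features. With array weights, which let a fit give less weight to arrays that vary more, CARS2 passed in this comparison. LARS1, TARS1 and TARS2 had all 3 clones below all 3 empty vector clones, 3 of 30 against 7.95% of all genes. The mitochondrial median was -0.05, and it was 0.02 after quantile normalization and -0.13 after median centring, so its direction depends on the scaling.

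The largest differences in this comparison were those of RARS2 at -0.61 (SE 0.43, adjusted p = 0.742), VARS1 at -0.43 (SE 0.27, adjusted p = 0.742) and WARS1 at -0.43 (SE 0.26, adjusted p = 0.742). WARS1, the tryptophanyl enzyme, read 10.30, 10.69 and 10.68 in the empty vector clones, 10.29 in the wild type, 9.63, 10.56 and 10.19 in clones 8, 9 and 12, and 10.48, 10.25 and 10.42 on the arrays of clone 2. Clone 8 was its lowest sample, and the other groups overlapped. Without clone 8 WARS1 differed by -0.18 (SE 0.14, adjusted p = 0.614), RARS2 by -0.06 (SE 0.09, adjusted p = 0.846) and VARS1 by -0.65 (SE 0.18, adjusted p = 0.12).

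In clone 2 of construct V2LHS_62675 CARS2, the mitochondrial cysteinyl enzyme (gene ID 79587), was lower than in the empty vector clones, and it passed the test once clone 8 was left out. CARS2 read 8.85 in the wild type, 8.88, 8.76 and 8.77 in the empty vector clones, 8.80, 9.25 and 9.05 in clones 8, 9 and 12, and 8.13, 8.35 and 8.34 on the arrays of clone 2. All 3 arrays of clone 2 lay below every other array. The difference was -0.53 with either set of clones, 69.2% of the empty vector level. Its SE was 0.23 (adjusted p = 1) with clone 8 and 0.13 (adjusted p = 0.0467) without it. Over 24 settings it ranged from -0.57 to -0.46, and its adjusted p from 0.00769 to 1, under 0.05 in 6 of them. Those 6 left out clone 8, used array weights, or counted the 3 arrays of clone 2 as replicates. Counting these arrays as replicates takes repeats of 1 clone for separate samples. Leaving out clone 8 changed no value of clone 2 or of the empty vector and acted only through the shared estimate of the spread and the adjustment over all features.

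Cytosolic genes were lower in clone 2 for 13 of 18 members, with a median of -0.23, against 43.6% of all genes and a median of 0.02. Without clone 8, 3.74% of all features passed (0% with it), and CARS2 was the only synthetase gene among them. With clone 8 LARS1 alone had an unadjusted p under 0.05, against 176 genes lower and 120 higher of all tested. Without it 6 cytosolic genes did (AARS1, LARS1, MARS1, NARS1, QARS1 and SARS1), all lower, against 8.36% of all genes. All 3 arrays of clone 2 lay below all 3 empty vector clones for AARS1, CARS2, LARS1, NARS1, QARS1 and SARS1, 6 of 30 against 13.6% of all genes. They lay above them for HARS1 alone, 1 of 30 against 13.3%. These arrays are repeats of 1 clone, so the count describes that clone.

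LARS1, the leucyl enzyme and a member of the multisynthetase complex, read 9.35 in the wild type, 9.57, 9.89 and 9.78 in the empty vector clones, 9.54, 9.46 and 9.33 in clones 8, 9 and 12, and 9.14, 9.24 and 9.24 on the arrays of clone 2. Every sample without the empty vector lay below the 3 clones that carry it. Clone 2 differed from them by -0.54 (SE 0.22, adjusted p = 1) with clone 8 in the fit and with an SE of 0.14 (adjusted p = 0.0655) without it. The V2LHS_62673 clones differed by -0.30 (SE 0.15, adjusted p = 0.742) and the wild type by -0.39 (SE 0.22, adjusted p = 1).

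AARS1, the alanyl enzyme, read 9.24 in the wild type, 9.68, 9.86 and 9.90 in the empty vector clones, 9.72, 9.77 and 9.28 in clones 8, 9 and 12, and 9.06, 9.33 and 9.46 on the arrays of clone 2. The wild type, clone 12 and clone 2 were the low samples, while clones 8 and 9 lay within the empty vector range. Clone 2 minus empty vector was -0.53 (SE 0.26, adjusted p = 1), and without clone 8 the SE was 0.18 (adjusted p = 0.126).

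**Figure D3:**
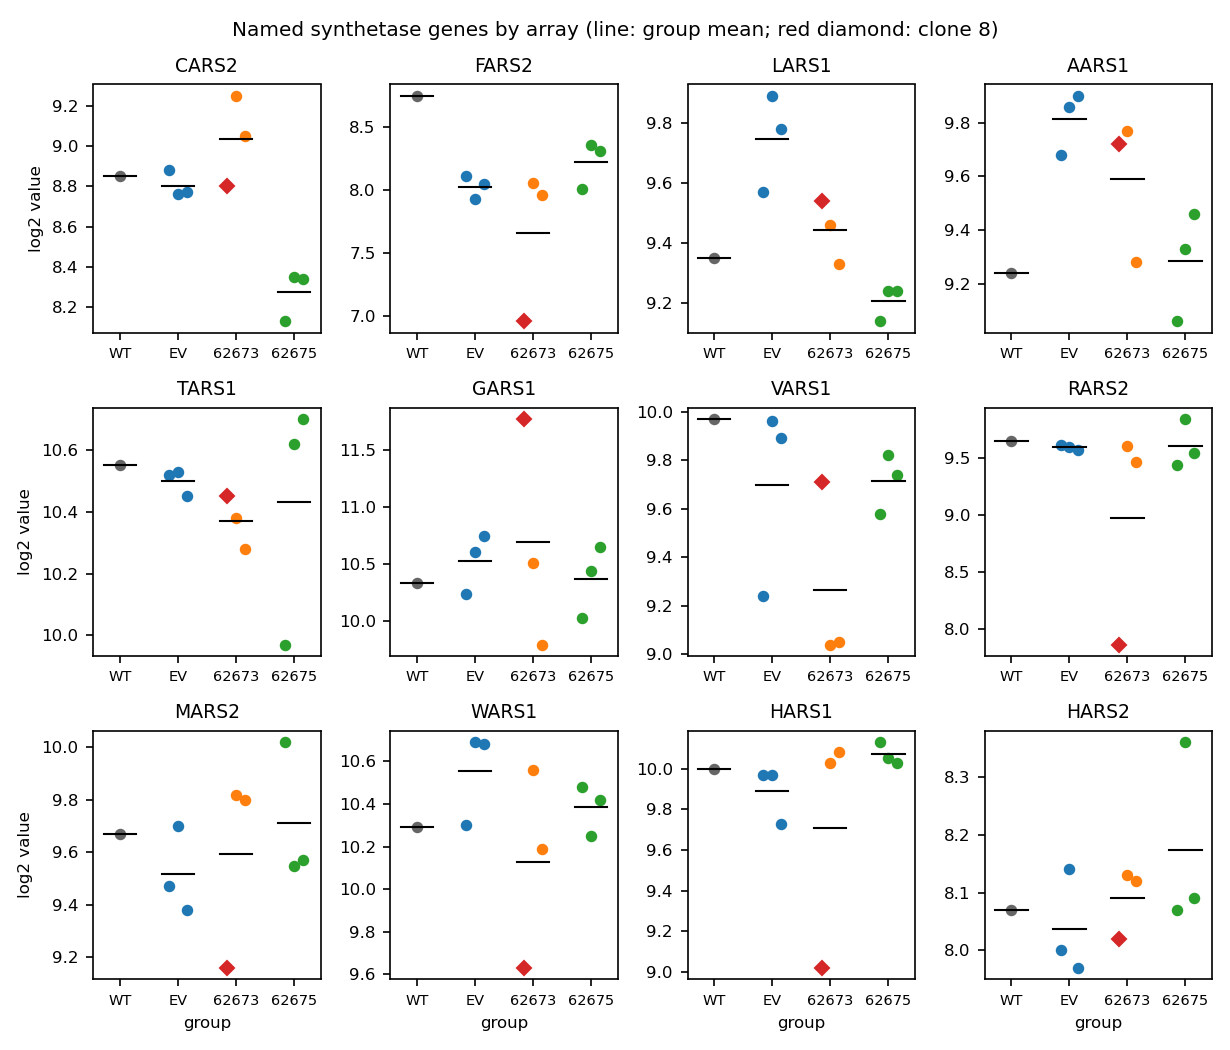
Log2 value on each array (vertical axis, own scale in each panel) of 12 synthetase genes in the wild type (WT), the empty vector clones (EV), the V2LHS_62673 clones and the arrays of V2LHS_62675 clone 2; lines are group means and the red diamond is clone 8. Clone 2 lies below every other array for CARS2, the wild type lies highest for FARS2, and clone 8 lies far from the rest for GARS1, HARS1 and RARS2.

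The wild type culture, which carries no hairpin, also differed from the empty vector clones. FARS2 (gene ID 10667) was higher there and passed the test without clone 8. It read 8.75 in the wild type, 8.11, 7.93 and 8.05 in the empty vector clones, 8.06 and 7.96 in clones 9 and 12, and 8.01, 8.36 and 8.31 on the arrays of clone 2. The wild type was the highest of all arrays. The difference was 0.72, or 1.65-fold, with an SE of 0.42 (adjusted p = 1) with clone 8 and 0.12 (adjusted p = 0.0178) without it. Over 22 settings it ranged from 0.68 to 0.76, with adjusted p from 0.0137 to 1, under 0.05 in 3 of them. This group is 1 culture, assumed in the fit to vary like the others.

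Cytosolic genes were lower in the wild type than in the empty vector for 12 of 18 members, with a median of -0.17, against 51.8% of all genes and a median of -0.01. Mitochondrial genes were higher for 9 of 12, with a median of 0.05. Without clone 8, 3.57% of all features passed (0% with it), and FARS2 was the only synthetase gene. With clone 8 no synthetase gene had an unadjusted p under 0.05, against 158 genes lower and 132 higher of all tested. Without it 5 cytosolic genes were lower at that level (AARS1, LARS1, MARS1, NARS1 and SARS1), against 9.45% of all genes. KARS1, RARS1, FARS2 and LARS2 were higher, 4 of 30, against 1150 of all 11199 features. The wild type value lay below all 3 empty vector clones for 10 of 30 genes, 9 of them cytosolic, against 30.4% of all genes. It lay above them for another 10, of which 5 were mitochondrial, against 30.1%.

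AARS1 had a wild type minus empty vector difference of -0.57 (SE 0.26, adjusted p = 1), and -0.57 (SE 0.18, adjusted p = 0.0999) without clone 8. SARS1, the seryl enzyme, read 10.26 in the wild type, 10.71, 10.91 and 10.80 in the empty vector clones, 10.76, 10.64 and 10.32 in clones 8, 9 and 12, and 10.23, 10.47 and 10.56 on the arrays of clone 2. The wild type and array 1 of clone 2 were its lowest values. Its wild type difference was -0.55 (SE 0.24, adjusted p = 1), with an SE of 0.15 (adjusted p = 0.0647) without clone 8. Low cytosolic values were thus also read in a culture with no hairpin. Its median of -0.17 stood beside -0.17 for V2LHS_62673 with all clones (-0.27 without clone 8) and -0.23 for clone 2, all measured from the same empty vector clones.

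The constructs were also compared with each other. CARS2 was lower in clone 2 than in the V2LHS_62673 clones, by -0.76 (SE 0.23, adjusted p = 0.931) with clone 8 and by -0.88 (SE 0.13, adjusted p = 0.0154) without it, 54.4% of the level in clones 9 and 12. Those clones lay above and clone 2 below the empty vector range, and clone 8 lay within it. Over 22 settings the difference ranged from -0.91 to -0.65 and its adjusted p from 0.00272 to 0.99, under 0.05 in 4. Those 4 left out clone 8 or used array weights, and they include a setting that counted the repeat arrays of clone 2 as separate samples. The differences of RARS2 at 0.63 (SE 0.61, adjusted p = 0.931) and FARS2 at 0.57 (SE 0.42, adjusted p = 0.931) rested on clone 8, and without it they were 0.08 (SE 0.12, adjusted p = 0.923) and 0.21 (SE 0.13, adjusted p = 0.523). Without clone 8, 2.15% of all features passed (0% with it), and CARS2 was the only synthetase gene. With clone 8 CARS2 alone had an unadjusted p under 0.05, against 87 genes lower and 162 higher of all tested. Of the cytosolic genes 12 of 18 were lower in clone 2 with all clones (median -0.13), against 6153 of all 11199 features (median -0.05). Without clone 8 it was 8 of 18 (median 0.01), against 44.5% of all genes.

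Set out by sample, the cytosolic genes were lowest in clone 12 and clone 2. Their median difference from the empty vector mean was -0.35 in clone 12, -0.08 in clone 9 and -0.05 in clone 8. It was -0.30, -0.30 and -0.12 on the arrays of clone 2, -0.17 in the wild type, and -0.14, 0.08 and 0.02 in the empty vector clones themselves. The range of the empty vector clones was thus wider than the distance of clones 8 and 9 from their mean. The mitochondrial medians lay between -0.16 in clone 8 and 0.08 on array 2 of clone 2.

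The 7 genes with the motif had a median of -0.46 in clone 12, -0.50, -0.29 and -0.13 on the arrays of clone 2, -0.28 in the wild type and -0.05 in clone 9. The 8 cytosolic genes with a start region but no motif had medians of -0.22 in clone 12, -0.22, -0.08 and 0.01 on the arrays of clone 2, 0.01 in the wild type and -0.01 in clone 9. In clone 8 the order was the other way, with -0.05 for the genes with the motif and -0.29 for those without. With all clones, the knockdown minus control difference was negative for 4 of 7 genes with the motif (median -0.12) and for 8 of 8 without it (median -0.13). Without clone 8 it was negative for 7 of 7 (median -0.20) and for 7 of 8 (median -0.12). The other 3 cytosolic genes, LARS1, VARS1 and YARS1, had no start region at hand. Their median was -0.64 in clone 12, -0.29 in clone 9, 0.01 in clone 8 and -0.14 in the wild type. On the arrays of clone 2 it was -0.44, -0.32 and -0.18. Their knockdown minus control differences were all negative, with a median of -0.26 with all clones and -0.35 without clone 8. Differences between these groups of genes were not tested.

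Genes of the amino acid response other than synthetases were read beside them. The 27 measured genes of that list had a median difference from the empty vector mean of -0.47 in clone 12, -0.04 in clone 9, 0.17 in clone 8 and -0.21 in the wild type. It was -0.32, -0.07 and -0.16 on the arrays of clone 2, and -0.11, 0.02 and 0.09 in the empty vector clones. Clone 12, array 1 of clone 2 and the wild type were low for both the motif genes and this list, while array 2 of clone 2 was low for the motif genes and within the empty vector range for the list. Across the 7 clones or cultures other than clone 8, the list's level correlated with GARS1 at 0.94, CARS1 at 0.93, and WARS1 and MARS1 at 0.89 each. It correlated with NARS1 at 0.05 and with HARS1 at -0.73. WARS1 has a start region without the motif, as do SARS1 (0.84) and EPRS1 (0.82), while TARS1, with the motif, stood at 0.54. No such values over all genes are given beside these. These are descriptions over 7 points that share arrays and their scaling, and with clone 8 included WARS1 went to -0.04.

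**Figure D4:**
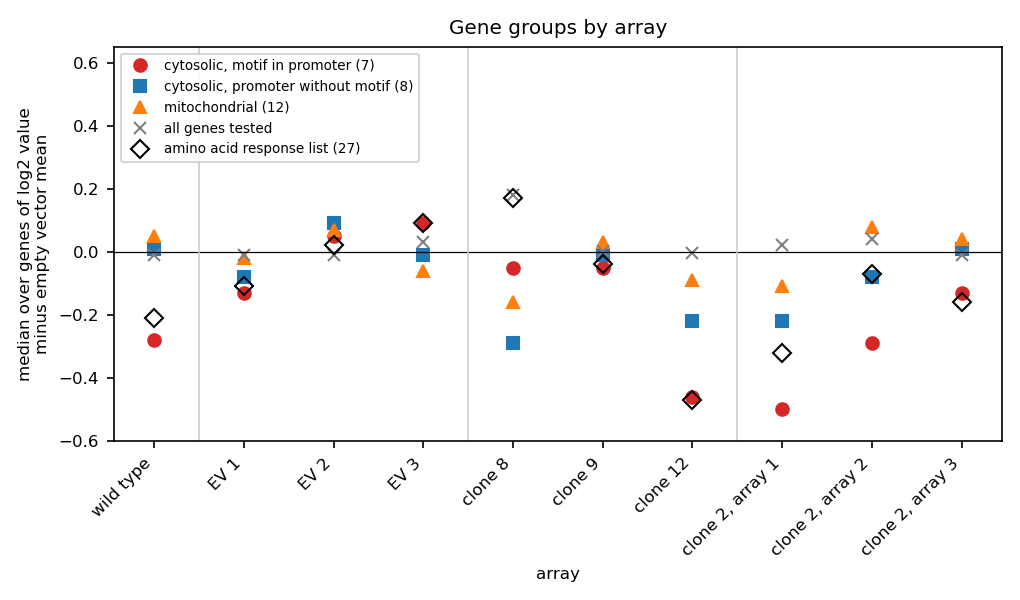
Median over the genes of a group of the log2 value minus the empty vector mean (vertical axis) on each of the 10 arrays (horizontal axis) for cytosolic synthetase genes with and without the motif, mitochondrial synthetase genes, all genes tested and the amino acid response list. The motif genes and that list are lowest in clone 12 and on array 1 of clone 2, while all genes stay near 0 except in clone 8 at 0.18.

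Of the multisynthetase complex 7 enzymes were measured, EPRS1, IARS1, KARS1, LARS1, MARS1, QARS1 and RARS1. Knockdown minus control was negative for 6 of 7 with all clones (median -0.12) and for 7 of 7 without clone 8 (median -0.13). Without clone 8 the values ran from -0.32 for LARS1 to -0.0018 for RARS1. Of the 11 cytosolic genes outside the complex, 9 were lower with all clones (median -0.13) and 10 without clone 8 (median -0.20). None passed. In the wild type 5 of 7 were lower than in the empty vector clones, while KARS1 differed by 0.35 (SE 0.21, adjusted p = 1) and RARS1 lay above all of them. Enzymes of the same complex thus did not share a direction there. AIMP1, the only scaffold protein of the complex with a probe of its own, differed by -0.09 (SE 0.23, adjusted p = 0.856) in knockdown minus control, and by 0.16 (SE 0.08, adjusted p = 0.78) without clone 8.

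Clone 8 differed from the other 9 arrays with the level of the signal. Its median deviation from their mean was 0.31 in the lowest decile of probes by level, 0.49 in the fifth and -0.53 in the highest. The synthetase genes differed in both directions, by more than 0.5 from the empty vector mean for 13 of 30, against 6200 of all 11199 features. Against that mean clone 8 was higher by 1.24 for GARS1, 0.72 for MARS1, 0.70 for CARS1 and 0.59 for YARS1. It was lower for NARS2 (-1.61), WARS1 (-0.93), HARS1 (-0.88), RARS1 (-0.87), WARS2 (-0.73), NARS1 (-0.69) and QARS1 (-0.53). RARS2 and FARS2 were low in it as well, as given above. Against the mean of the other 9 arrays, 6 of 18 cytosolic genes were lower in clone 8 (median 0.11), where 59.4% of the genes in the same range of levels were lower (median -0.22). For mitochondrial genes it was 8 of 12 (median -0.16), against 60.9% (median -0.22). What sets this clone or its array apart was not tested.

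Spread among repeats limits these comparisons. The SD over the 3 empty vector clones had a median of 0.10 over the 30 genes, as over all genes, from 0.02 for RARS2 to 0.40 for VARS1. This median was 0.14 for the cytosolic and 0.09 for the mitochondrial genes. The SD over the 3 arrays of clone 2 had a median of 0.17, from 0.05 for PARS2 to 0.40 for TARS1, against 0.12 for all genes. Repeats of 1 clone thus spread at least as widely as different empty vector clones did for 20 of the 30 genes (66.7%), and for 57.5% of all features. Of the mitochondrial genes 11 of 12 did so, all but PARS2. Array 1 of clone 2 lay below the mean of arrays 2 and 3 for 22 of 30 synthetase genes (median -0.20), where it did so for 5554 of 11199 features (median 0.0022). The deviation was -0.69 for TARS1 and -0.66 for KARS1, and 0.47 for MARS2.

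Genes around tRNA charging were counted from lists named by function. No list gene passed in any comparison with all clones. Without clone 8, knockdown minus control was negative for 48.1% of all genes (median 0.005). It was negative for 22 of 27 amino acid response genes (median -0.20) and for 11 of 13 amino acid transporters (median -0.13). Of these SHMT2, a mitochondrial serine enzyme, differed by -0.34 (SE 0.15, adjusted p = 0.77), PHGDH, which opens serine synthesis, by -0.51 (SE 0.27, adjusted p = 0.794), and the transporters SLC38A1 and SLC38A2 by -0.08 and -0.13. It was negative for 11 of 32 tRNA modification genes (URM1 0.27 and ADAT2 -0.16), 9 of 22 tRNA maturation and export genes (NOL6 0.16 and TRMT10C -0.10) and 6 of 16 RNA polymerase III genes (GTF3C3 -0.15 and GTF3C2 -0.13). It was negative for 2 of 6 mitochondrial translation factors (TSFM 0.01 and GFM1 0.09), 1 of 3 cytosolic elongation factors (EEF1D 0.05 and EIF5A 0.01) and 3 of 7 genes of indirect charging, proofreading and synthetases outside the symbol rule (DTD1 -0.15 and AARSD1 0.05). With all clones these counts were 16 of 27 amino acid response genes, 8 of 13 transporters, 18 of 32 tRNA modification genes, 13 of 22 maturation and export genes, 7 of 16 RNA polymerase III genes, 5 of 6 mitochondrial translation factors, 1 of 3 elongation factors and 4 of 7 of the last list. Of all genes 44.0% lay below 0 with all clones. For modification, maturation and mitochondrial translation the majority of list genes thus lay below 0 with clone 8 and above 0 without it.

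The list genes that passed without clone 8 did so in the single-sample groups. In the wild type DDIT4, a stress-induced inhibitor of mTOR signalling, was lower than in the empty vector by -2.45 (SE 0.43, adjusted p = 0.0221), CHAC1, a glutathione-degrading ATF4 target, by -1.31 (SE 0.29, adjusted p = 0.0384) and SLC38A2 by -0.72 (SE 0.13, adjusted p = 0.0241). Higher in the wild type were POP1, RPP40, RTCB, TRMU, QRSL1 and GFM1, by 0.63 to 0.72. In clone 2 the ATF4 target TRIB3 was lower by -0.62 (SE 0.14, adjusted p = 0.0405), and POP1, NOL6, URM1 and TRMU were higher by 0.54 to 0.62. Against the V2LHS_62673 clones, clone 2 was lower for RPP14 (-0.85) and ADAT1 (-0.63) and higher for POP5 (0.60).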

How the data were processed

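RNA was measured on exon arrays in 8 clones or cultures of DLD-1 cells. Per the labels, total RNA depleted of ribosomal RNA was copied into biotin-labelled single-stranded cDNA. The deposited values are log2 intensities by their range, 1 for each of 22011 probes on each of 10 arrays. The sources used here do not state the authors' scaling, log base or tools, and nothing was rescaled for the main results. Samples were grouped by title, and the 3 arrays of clone 2 were averaged. Of the probes, 14432 carry a single gene symbol in the array annotation. The probe with the highest mean was kept for each gene. Those whose mean over the 8 clones or cultures fell below 5.96, the 25th percentile, were left out. The LMNB1 probe was added, which gave 11199 features. They were fitted with limma 3.58.1 in R 4.3.3 (lmFit, eBayes; two-sided; Benjamini-Hochberg over all features; threshold 0.05). Knockdown minus control was a 2-group fit with 6 residual degrees of freedom, and the other 4 comparisons came from a 4-group fit with 4. The fits were tested on simulated data.

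The members and lists were chosen with earlier results of these data known. Values in every sample were given for the 3 largest differences each way in knockdown minus control, the 3 largest in absolute size in each other comparison, members past the threshold with or without clone 8, and members whose knockdown and control values did not overlap. HARS1 and the genes listed for clone 8 were added after their values were seen. From each list of related genes the 2 smallest p in knockdown minus control and any gene past the threshold were named. The alternatives were another scaling, filter, probe rule, prior, weighting and treatment of repeated arrays, and leaving out each sample. The number of arrays limits the precision. Start-site sequences came from RefSeq (GRCh38.p14), matched by symbol.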

Additional observations from a re-analysis of the deposited data

Results flagged for a closer look

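Dixon's criterion was applied to 62 groups of 4 clones or cultures. It marked 7 values of the synthetase genes as far from the other 3 of their group. Chance marks about 1 in 20 groups of like samples. These groups join the wild type with empty vector clones, or averaged repeats with single arrays, so that rate is no close reference. The share marked over all features was not counted. Of the 7, 4 were values of clone 8. Its array stood apart over all genes, so these 4 cannot be taken as particular to the synthetase genes. HARS1 read 9.02 in clone 8 against 10.03 to 10.08 in the other knockdown clones. RARS1, the cytosolic arginyl enzyme, read 10.01 there against 10.91 to 11.01, RARS2 read 7.86 against 9.46 to 9.61, and MARS2 read 9.16 against 9.71 to 9.82. Among the controls, HARS1 read 9.73 in empty vector clone 3 against 9.97 to 10.00, and VARS1 read 9.24 in empty vector clone 1 against 9.89 to 9.97. KARS1, the lysyl enzyme of both compartments, read 8.47 in the wild type against 8.09 to 8.15.

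CARS2 differed between the constructs by -0.88 (adjusted p = 0.0154 in limma) once clone 8 was left out, with both remaining V2LHS_62673 clones above and clone 2 below the empty vector clones. The hairpin and the clone cannot be told apart here, since V2LHS_62675 is 1 clone.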

How the results depend on the processing

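The count of features past the threshold, 0 in each comparison with all clones, moved with how clone 8 and repeated arrays entered. For knockdown minus control it was 7 with array weights, 3 with the empty vector alone as controls, 2 with every array a replicate (2 also without clone 8), 1 with clone as a random block, quantile normalization or a trended robust prior, 19 without clone 8 against the empty vector alone, and 0 to 3 when each sample was left out. For V2LHS_62673 it was 338 with array weights, 5 with the random block, 6 with every array (20 without clone 8), 27 without clone 8 after quantile normalization, and 0 to 111 over samples left out. For clone 2 it was 472, 1, 59 (1144) and 283 in the same order, and 0 to 419. For the wild type it was 479 with array weights, 88 without clone 8 with every array, 205 without clone 8 after quantile normalization, 1 with no filter and 0 to 400. Between the constructs it was 371, 4, 15 (414) and 157, and 0 to 241. The highest counts over samples left out came from leaving out clone 8, except for knockdown minus control, where it was the wild type. No synthetase gene passed in knockdown minus control under any setting.

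Replicate numbers are shared by the empty vector clones and the arrays of clone 2. After each gene's group mean was subtracted, the deviations of same-numbered samples correlated at 0.029, -0.153 and -0.235. Those of differently numbered samples correlated at -0.075 to 0.23. The 3 deviations of a group sum to 0, so these values cannot decide whether the numbers pair the samples. With a replicate block 944 features passed against 1030 without, all 3 arrays taken as replicates of 1 clone, with AARS1, CARS2, LARS1 and MARS1 against AARS1, CARS2 and LARS1.

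The LMNB1 difference passed the threshold at -1.43 with array weights, -1.46 with the random block or the trended prior, -1.45 with every array (-1.48 without clone 8), -1.48 after quantile normalization and -1.33 against the empty vector alone (-1.37 without clone 8), and it ranged from -1.55 to -1.33 over samples left out. Among 429 alternative values of the 19 differences named for synthetase genes, 402 kept direction and side of the threshold, 19 newly passed and 8 reversed. In knockdown minus control GARS1 reversed to -0.18 with array weights and, without clone 8, to -0.30 against the empty vector, -0.19 with every array and -0.26 after quantile normalization, and ranged from -0.25 to 0.41 over samples left out. FARS2 reversed to 0.05 without clone 8 and the wild type, and HARS2 (-0.0042) and MARS2 (-0.00053) reversed with median centring. The cause of these changes was not tested. The alternatives that leave out clone 8 together with a further change were chosen after seeing the data.

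The cytosolic count of 15 of 18 lower in knockdown minus control was 13 to 17 over samples left out. It was 15 after quantile normalization (median -0.07) and 17 after median centring (median -0.19). With 1 clone of V2LHS_62675 and 1 wild type culture, neither group has a spread of its own.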
